A study of Homo sapiens with 12 samples.

Results

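The genes described here are protein-coding genes of the long arm of human chromosome 11, bands q22 to q23. As a group their RNA was more abundant in 2 Cas9-edited endothelial lines than in their control line, though not for every gene in both lines. A list of 45 symbols was taken, and the 38 with a mean abundance of at least 1 TPM over the 12 libraries are the members, out of 35587 symbols in the deposited table and 13299 genes tested. TPM is a measure of transcript abundance scaled to a common total per library. The members lie between YAP1 and UBE4A, chr11:102110461-118399211 in GRCh38, a stretch of 16.3 Mb. The list was drawn up from the difference between the edited lines and the control line, so those differences are given as descriptions and carry no test. The differences between the edited lines, and between coatings within a line, were not used in the choice and are tested.

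The cells were TeloHAEC, human aortic endothelial cells immortalised with telomerase. The TKO line had TSPAN14 targeted with Cas9 and a guide RNA, the NKO line had NOTCH1 targeted, and NT is the control line, whose genotype the labels give as wild type. Each line was plated for 24 hours on a coating of DLL4, a ligand of Notch receptors, or of IgG as its control, and polyadenylated RNA of 2 libraries was sequenced for each of the 6 groups. Each targeted gene is represented by 1 line, and the labels do not say whether a line is a clone or a pool, so the edit and the rest of a line's history cannot be told apart. Libraries of a group are labelled as biological replicates with no word on separate cultures, so a p-value here measures the spread between these libraries. TPM do not hold the number of reads behind a value, so depth is unknown and intervals for counting error cannot be had.

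The targeted genes were read first, on other chromosomes. TSPAN14 averaged 111 ± 2.98 TPM in TKO cells, 176 ± 2.32 in NKO cells and 179 ± 9.64 in NT cells on DLL4, and 137 ± 14.8 TPM in TKO cells, 190 ± 15.8 in NKO cells and 204 ± 20.5 in NT cells on IgG (SD, n = 2 each). NOTCH1 averaged 18.0 ± 2.09 TPM in NKO cells, 22.7 ± 1.53 in TKO cells and 28.1 ± 4.78 in NT cells on DLL4, and on IgG its libraries overlapped between all 3 lines. All 10 endothelial markers averaged at least 1 TPM, and their sum was 2165 to 2395 TPM in TKO, 2149 to 2475 in NKO and 2195 to 2548 in NT libraries. Of 4 fibroblast markers none averaged 1 TPM. Of 4 leukocyte markers 1 did, CD14 with a mean of 2.01 TPM, and the sums were 2.95 to 10.1 TPM in TKO, 0.584 to 1.82 in NKO and 0.367 to 1.01 in NT libraries. Smooth muscle markers, 2 of 5 of which averaged 1 TPM, summed to 121 to 190 TPM in TKO, 92.3 to 121 in NKO and 90.3 to 115 in NT libraries. Epithelial markers, 1 of 3 of which did, summed to 298 to 753 TPM in TKO, 74.4 to 299 in NKO and 64.3 to 223 in NT libraries. Nearly all of that sum was KRT19, with a mean of 267 TPM, while CDH1 averaged 0.141 and EPCAM 0.076 TPM. The part of these marker differences in the results was not tested.

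This stretch of the chromosome holds neighbours that have no single function in common. YAP1 is the transcriptional coactivator at the end of the Hippo pathway and works with TEAD factors, BIRC2 is a ubiquitin ligase that restrains cell death, ATM is the kinase that starts the response to DNA breaks, and CASP4 is a caspase that senses bacterial lipopolysaccharide in the cytosol. Others serve mitochondria (ACAT1, FDX1, DLAT, TIMM8B, REXO2) or the processing of RNA (DDX10, RBM7, BUD13).

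Across the 38 members the TPM of TKO cells was a median of 2.95 times that of NT cells on DLL4 and 2.74 times on IgG, and the TPM of NKO cells was a median of 2.18 times that of NT cells on DLL4 and 2.03 times on IgG. On the log2(TPM + 1) scale, used for all log2 values below, the median difference was 1.28 on DLL4 and 1.25 on IgG for TKO minus NT, and 1.03 on DLL4 and 0.90 on IgG for NKO minus NT. Over all genes tested the same medians were 0.03, 0.04, 0.06 and 0.06. In bulk RNA, a different share of expressing cells and a different amount of RNA per cell cannot be told apart. Both TKO libraries were above both NT libraries for 36 members on DLL4, where 37.1% of all genes tested were, and for 36 on IgG, where 34.0% were. Both NKO libraries were above both NT libraries for 33 members on DLL4, with 37.1% of all genes tested, and for 31 on IgG, with 30.9%. Below NT without overlap were 0 members in TKO on DLL4 (28.2% of genes tested) and 1, DDX10, on IgG (28.0%), and in NKO 1, SIDT2, on DLL4 (25.0%) and 0 on IgG (21.2%). Because these contrasts chose the members, nothing is read from the counts. In all 4 of these contrasts 28 members were above NT without overlap, against 9.17% of genes tested, and 34 had a difference over 0 in all 4. The TKO and NKO contrasts share the NT libraries.

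**Figure D1:**
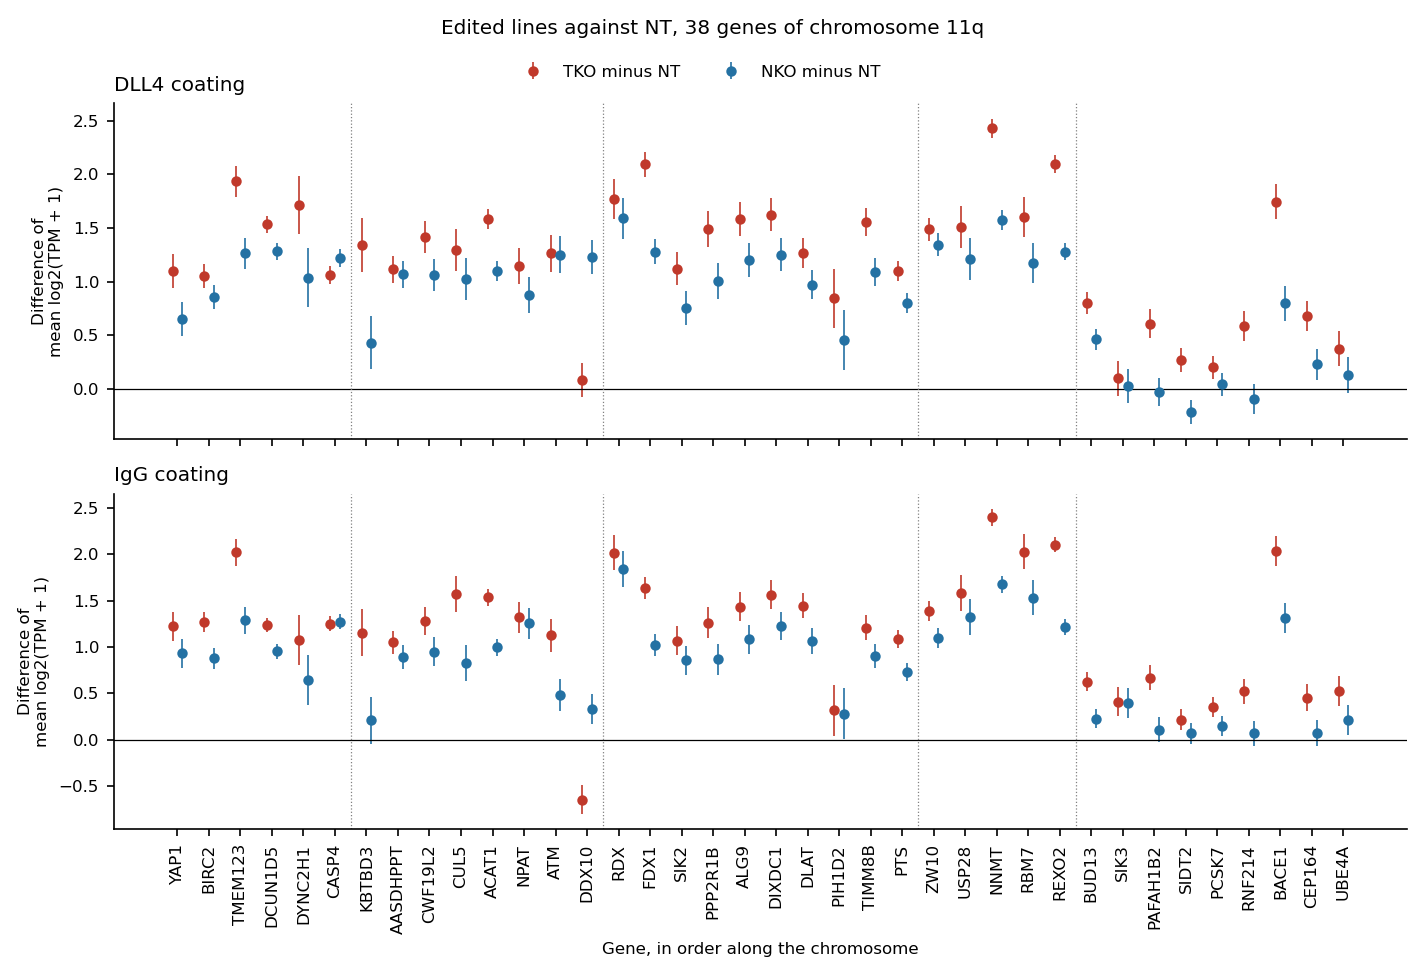
Difference in mean log2(TPM + 1) from NT for TKO (red) and NKO (blue), for 38 genes in order along the chromosome, on DLL4 (upper panel) and IgG (lower panel). Points are fitted differences, bars their standard errors (2 libraries per group), and dotted lines part the 5 stretches described in the text; from YAP1 to REXO2 the TKO median is 1.49 on DLL4 and 1.28 on IgG, and from BUD13 to UBE4A it is 0.59 on DLL4 and 0.52 on IgG.

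The members were not alike along the chromosome. From YAP1 to REXO2, a stretch of 12.3 Mb with 29 members, the median TPM ratio of TKO to NT was 3.06 on DLL4 and 2.90 on IgG, and that of NKO to NT was 2.40 on DLL4 and 2.16 on IgG. REXO2 and BUD13 lie 2.3 Mb apart, and from BUD13 to UBE4A, 9 members over 1.65 Mb, the median ratio of TKO to NT was 1.54 on DLL4 and 1.49 on IgG, and that of NKO to NT was 1.03 on DLL4 and 1.11 on IgG. Of the 28 members above NT in all 4 contrasts, 26 lay between YAP1 and REXO2 and 2, BUD13 and BACE1, lay beyond. Because the list was drawn up from these differences, the step between the stretches is a description.

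The first stretch runs from YAP1 to CASP4 and has 6 members and BIRC3, which was below the limit. YAP1 had 14.3 and 13.4 TPM in TKO cells, 8.83 and 10.99 in NKO cells, and 6.21 and 5.62 in NT cells on DLL4. Its IgG libraries held 9.35 and 11.9 TPM in TKO cells, 9.37 and 7.59 in NKO cells, and 4.10 and 3.80 in NT cells. All 8 libraries of the edited lines were above the NT libraries of their own coating. BIRC2, beside it, had 30.6 and 30.5 TPM in TKO cells, 26.1 and 26.9 in NKO cells, and 14.4 and 13.99 in NT cells on DLL4, and 30.1 and 31.9 TPM in TKO, 26.4 and 20.8 in NKO, and 12.5 and 12.01 in NT cells on IgG. The lowest NKO library on IgG was still well above the highest NT library. Its paralog BIRC3, another ubiquitin ligase of the same family, averaged 0.298 TPM and stayed under the limit of 1 TPM.

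TMEM123 (chr11:102396332-102470384, minus strand), which encodes a cell-surface membrane protein, had the largest mean of the 4 log2 differences from NT in this first stretch, 1.63. It had 129 and 127 TPM in TKO cells, 82.1 and 77.9 in NKO cells, and 34.4 and 31.1 in NT cells on DLL4. On IgG it had 118 and 148 TPM in TKO cells, 92.3 and 67.5 in NKO cells, and 34.1 and 29.5 in NT cells. The 3 lines were fully separated on both coatings, in the order TKO, NKO, NT, with ratios to NT of 3.91 (TKO) and 2.44 (NKO) on DLL4 and 4.18 (TKO) and 2.51 (NKO) on IgG. DCUN1D5 (chr11:103062076-103092215, minus strand) promotes the attachment of NEDD8 to cullins. It had 152 and 137 TPM in TKO cells, 122 and 120 in NKO cells, and 51.1 and 47.2 in NT cells on DLL4, and 167 and 151 TPM in TKO, 133 and 128 in NKO, and 66.1 and 67.5 in NT cells on IgG. Its NT libraries were lower on DLL4 than on IgG. DYNC2H1, the heavy chain of the motor for return transport in cilia, was just inside the limit of 1 TPM with a mean of 1.84. It reached that limit through the edited lines, as its NT means were 0.415 TPM on DLL4 and 0.719 on IgG. Its values ran from 1.39 to 4.09 TPM in the edited lines and from 0.287 to 0.543 TPM in NT cells on DLL4, so its ratios of 8.80 (TKO) and 4.70 (NKO) rest on low values. CASP4 had 61.4 and 60.8 TPM in TKO cells, 71.5 and 65.4 in NKO cells, and 30.2 and 27.3 in NT cells on DLL4. It was the one member of this stretch whose mean TPM in TKO was not above that in NKO on either coating.

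The second stretch runs from KBTBD3 to DDX10 and has 8 members, with EXPH5 below the limit at a mean of 0.0911 TPM. KBTBD3 and AASDHPPT, the enzyme that attaches phosphopantetheine to carrier proteins, start back to back and overlap by 2265 bases. AASDHPPT was 2.24 (TKO) and 2.17 (NKO) times NT on DLL4, and 2.15 (TKO) and 1.91 (NKO) times NT on IgG. KBTBD3 had 4.41 and 4.06 TPM in TKO cells, 1.47 and 2.14 in NKO cells, and 1.11 and 1.01 in NT cells on DLL4, and 5.23 and 3.27 TPM in TKO, 1.56 and 1.79 in NKO, and 1.91 and 0.839 in NT cells on IgG. On IgG its NKO libraries lay between its NT libraries. Neither the annotation behind the TPM nor the use of strand is given in the sources used here, so reads of overlapping genes may not have been told apart.

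CWF19L2 had ratios to NT of 3.20 (TKO) and 2.44 (NKO) on DLL4 and 2.79 (TKO) and 2.16 (NKO) on IgG. CUL5, the scaffold of a family of ubiquitin ligases, had 11.6 and 9.93 TPM in TKO cells, 8.58 and 8.85 in NKO cells, and 4.05 and 3.53 in NT cells on DLL4. With IgG the gene had 10.1 and 14.9 TPM in TKO cells, 8.40 and 5.69 in NKO cells, and 3.397 and 3.54 in NT cells, with no overlap between lines on either coating. ACAT1 (chr11:108121516-108147776, plus strand) is the mitochondrial thiolase that makes and breaks acetoacetyl-CoA. It had 95.1 and 90.05 TPM in TKO cells, 69.9 and 62.0 in NKO cells, and 30.5 and 29.8 in NT cells on DLL4, and 90.03 and 84.7 TPM in TKO, 61.7 and 58.1 in NKO, and 31.3 and 27.7 in NT cells on IgG. Each of its groups was tight, and the 3 lines were separated on both coatings.

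NPAT and ATM start from a shared promoter region on opposite strands, and their annotated genes overlap by 159 bases. NPAT, a coactivator of histone genes in S phase, had 6.71 and 6.03 TPM in TKO cells, 4.96 and 5.26 in NKO cells, and 2.67 and 2.02 in NT cells on DLL4, and 5.90 and 5.55 TPM in TKO, 6.40 and 4.58 in NKO, and 1.69 and 1.68 in NT cells on IgG. ATM had 8.79 and 9.40 TPM in TKO cells, 9.92 and 8.18 in NKO cells, and 3.18 and 3.22 in NT cells on DLL4. On IgG it had 10.6 and 8.31 TPM in TKO cells, 6.43 and 4.94 in NKO cells, and 4.36 and 3.23 in NT cells. The NKO difference of ATM was thus 1.25 on DLL4 and 0.48 on IgG (SE 0.17), while that of NPAT was 0.87 on DLL4 and 1.26 on IgG (SE 0.17). DDX10 (chr11:108665025-108940930, plus strand), a DEAD-box RNA helicase that works in ribosome assembly, went its own way. It had 35.1 and 36.9 TPM in TKO cells, 86.2 and 76.1 in NKO cells, and 35.3 and 32.4 in NT cells on DLL4. Its IgG libraries held 53.6 and 36.2 TPM in TKO cells, 86.9 and 88.4 in NKO cells, and 76.8 and 62.9 in NT cells. TKO cells were below NT on IgG (difference -0.64, SE 0.16) and overlapped NT on DLL4, and NKO cells were above NT on both coatings. The difference of DDX10 in NKO cells was 1.24 on DLL4 and 0.33 on IgG.

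The promoters of these 3 genes are printed to set the shared NPAT and ATM start beside that of DDX10, the member that departed most from its neighbours. They are RefSeq windows on GRCh38.p14, each from 250 bases before to 50 bases after the start and written along the gene's own strand. Those of NPAT (chr11:108222589-108222888, minus strand) and ATM (chr11:108222817-108223116, plus strand) overlap by 72 bases, and that of DDX10 is chr11:108664819-108665118, plus strand. Capitals mark the one match to the 3 motif cores searched, GGAAGT in NPAT.
NPAT: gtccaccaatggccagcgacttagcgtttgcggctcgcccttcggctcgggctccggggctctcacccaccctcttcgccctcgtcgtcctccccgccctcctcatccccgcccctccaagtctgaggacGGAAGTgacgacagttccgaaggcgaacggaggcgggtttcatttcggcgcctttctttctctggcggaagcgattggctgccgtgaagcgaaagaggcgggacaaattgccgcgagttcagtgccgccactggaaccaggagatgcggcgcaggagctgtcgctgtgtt
ATM: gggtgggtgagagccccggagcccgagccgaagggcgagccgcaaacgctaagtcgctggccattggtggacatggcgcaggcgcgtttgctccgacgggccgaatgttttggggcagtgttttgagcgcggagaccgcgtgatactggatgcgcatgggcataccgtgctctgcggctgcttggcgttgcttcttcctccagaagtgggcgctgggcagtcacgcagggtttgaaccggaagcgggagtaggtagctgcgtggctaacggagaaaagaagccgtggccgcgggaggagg
DDX10: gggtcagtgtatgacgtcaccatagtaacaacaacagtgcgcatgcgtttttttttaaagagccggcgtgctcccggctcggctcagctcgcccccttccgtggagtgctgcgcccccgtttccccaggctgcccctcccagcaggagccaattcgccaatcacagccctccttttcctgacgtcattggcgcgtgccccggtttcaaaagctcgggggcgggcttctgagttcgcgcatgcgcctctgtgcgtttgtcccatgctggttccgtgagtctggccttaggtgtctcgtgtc
The motif cores were TGGGAA of RBPJ, the DNA-binding partner of Notch, GGAATG of TEAD, the partner of YAP1, and GGAAGT of the ETS factors that are active in endothelial cells, each searched on both strands. Matches of the 3 cores can overlap, since all 3 contain GGAA. Of the 36 member promoters found, 11.1% held TGGGAA, 8.33% held GGAATG and 33.3% held GGAAGT, against 24.3%, 14.0% and 23.2% of all 27305 promoters. NNMT and TIMM8B had no entry. A match is a description of these letters and not a binding site.

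**Figure D2:**
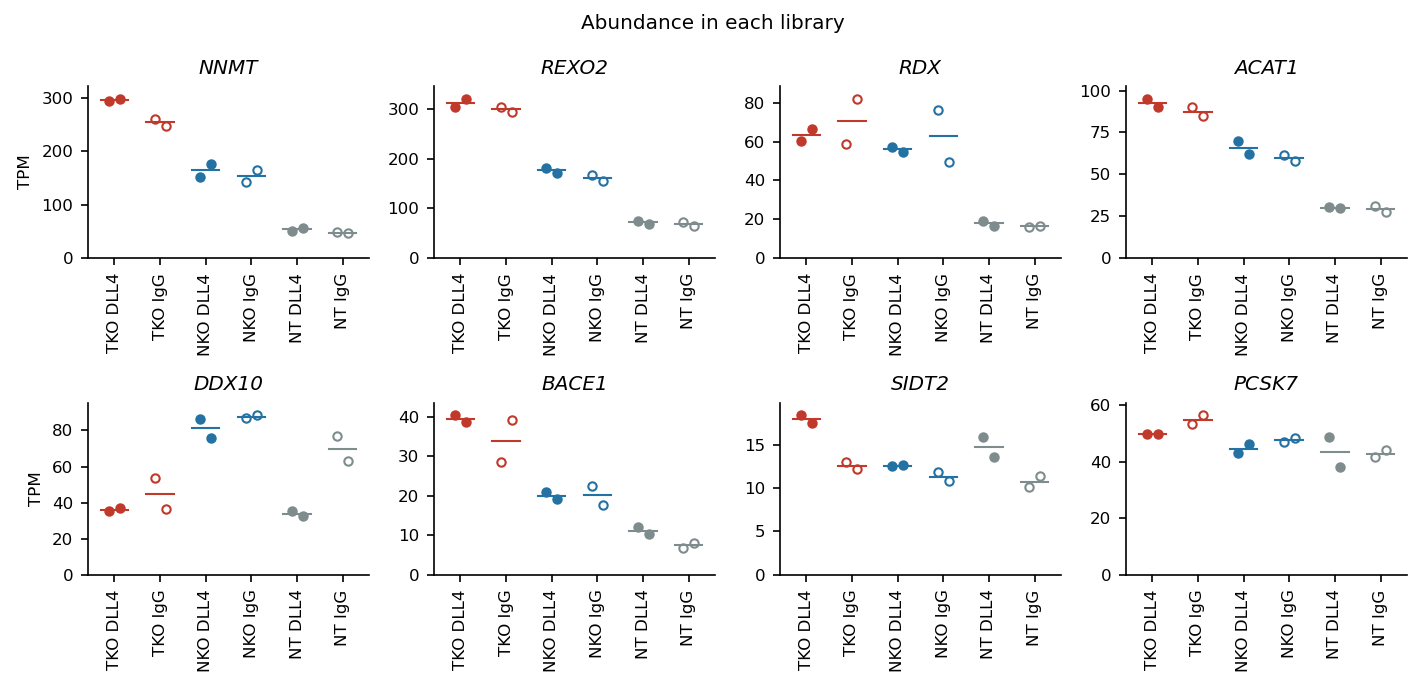
TPM of 8 genes in each of the 12 libraries, grouped by line and coating; points are libraries (filled for DLL4, open for IgG), lines are group means, and each vertical axis starts at 0. NNMT, REXO2 and ACAT1 fall into 3 levels in the order TKO, NKO, NT, while DDX10 is lowest in TKO cells and in NT cells on DLL4, and PCSK7 lies between 38.1 and 56.4 TPM in all libraries.

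The third stretch runs from RDX to PTS and has 10 members, with LAYN, CRYAB and IL18 below the limit at means of 0.750, 0.0847 and 0.599 TPM. RDX (chr11:109864295-110296722, minus strand) encodes radixin, which ties actin filaments to the plasma membrane. It had 60.4 and 66.6 TPM in TKO cells, 57.5 and 54.5 in NKO cells, and 19.2 and 16.6 in NT cells on DLL4, and 59.0 and 82.1 TPM in TKO, 76.2 and 49.5 in NKO, and 16.2 and 16.6 in NT cells on IgG. RDX had the second largest mean of the 4 differences of the edited lines from NT, 1.81, and its TKO and NKO libraries overlapped on IgG. FDX1, the ferredoxin that passes electrons to mitochondrial cytochromes P450, had 36.3 and 31.9 TPM in TKO cells, 19.9 and 18.1 in NKO cells, and 7.76 and 6.71 in NT cells on DLL4. On IgG it had 31.2 and 27.5 TPM in TKO cells, 18.7 and 18.9 in NKO cells, and 9.12 and 8.38 in NT cells. Its libraries fell into 3 separate levels by line on both coatings.

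SIK2, a kinase of the salt-inducible family, and PPP2R1B, a scaffold subunit of protein phosphatase 2A, overlap at their 3' ends on opposite strands. SIK2 was 3.06 (TKO) and 2.20 (NKO) times NT on DLL4 and 2.93 (TKO) and 2.42 (NKO) times NT on IgG. PPP2R1B was 3.06 (TKO) and 2.15 (NKO) times NT on DLL4 and 2.55 (TKO) and 1.92 (NKO) times NT on IgG. ALG9, a mannosyltransferase of N-glycan assembly, and DIXDC1, a DIX-domain protein of Wnt signalling, were close to them. ALG9 had ratios to NT of 3.27 (TKO) and 2.49 (NKO) on DLL4 and 2.90 (TKO) and 2.28 (NKO) on IgG. DIXDC1 had ratios to NT of 3.45 (TKO) and 2.62 (NKO) on DLL4 and 3.401 (TKO) and 2.62 (NKO) on IgG. DLAT, the acetyltransferase subunit of pyruvate dehydrogenase, had 56.0 and 51.2 TPM in TKO cells, 45.4 and 41.5 in NKO cells, and 23.8 and 19.6 in NT cells on DLL4.

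PIH1D2 (chr11:112064010-112074274, minus strand) had the lowest level of the members, a mean of 1.29 TPM. Its NT means were 0.647 TPM on DLL4 and 0.994 on IgG, so PIH1D2 too reached the limit through the edited lines. It had 1.74 and 2.09 TPM in TKO cells, 1.18 and 1.27 in NKO cells, and 0.952 and 0.343 in NT cells on DLL4, and 0.975 and 2.07 TPM in TKO, 1.80 and 1.06 in NKO, and 1.26 and 0.731 in NT cells on IgG. On IgG the 3 lines overlapped, which with DDX10 and KBTBD3 makes it one of the 3 members before BUD13 that were not above NT in all 4 contrasts. NKAPD1, which starts back to back with it and is not on the list, had 21.1 and 19.5 TPM in TKO cells, 17.8 and 15.6 in NKO cells, and 6.93 and 7.37 in NT cells on DLL4. TIMM8B (chr11:112084800-112086798, minus strand), a chaperone for proteins crossing the mitochondrial intermembrane space, had 176 and 168 TPM in TKO cells, 114 and 135 in NKO cells, and 58.7 and 56.9 in NT cells on DLL4. With IgG the gene had 156 and 132 TPM in TKO cells, 101 and 132 in NKO cells, and 58.8 and 64.1 in NT cells, where the edited lines overlapped each other. Its back-to-back neighbour SDHD, a membrane subunit of succinate dehydrogenase that is not on the list, differed from NT by amounts within 0.19 of those of TIMM8B in all 4 contrasts. PTS (chr11:112226365-112269955, plus strand) makes a precursor of tetrahydrobiopterin, the cofactor of nitric oxide synthase. It had 92.2 and 85.3 TPM in TKO cells, 73.9 and 70.2 in NKO cells, and 42.4 and 39.4 in NT cells on DLL4, and 92.2 and 80.9 TPM in TKO, 70.8 and 63.9 in NKO, and 41.5 and 38.8 in NT cells on IgG. The libraries of PTS separated by line on both coatings.

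The fourth stretch, with 5 members from ZW10 to REXO2, had the largest median differences of the 5 stretches in all 4 contrasts. TTC12 and CADM1 at its ends were below the limit, at means of 0.982 and 0.127 TPM. ZW10, a kinetochore protein, was 3.04 (TKO) and 2.74 (NKO) times NT on DLL4 and 2.79 (TKO) and 2.27 (NKO) times NT on IgG. USP28, a deubiquitinase, was 3.45 (TKO) and 2.75 (NKO) times NT on DLL4 and 3.65 (TKO) and 3.02 (NKO) times NT on IgG. RBM7, an RNA-binding subunit of the nuclear exosome targeting complex, had 33.2 and 30.0 TPM in TKO cells, 26.1 and 20.6 in NKO cells, and 9.0 and 10.5 in NT cells on DLL4. The medians over the 5 members were 1.61 on DLL4 and 2.03 on IgG for TKO minus NT, and 1.28 on DLL4 and 1.32 on IgG for NKO minus NT.

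NNMT (chr11:114257787-114313285, plus strand), which methylates nicotinamide, had the largest mean of the 4 differences, 2.02. It had 294 and 298 TPM in TKO cells, 152 and 176 in NKO cells, and 51.7 and 56.6 in NT cells on DLL4, and 259 and 248 TPM in TKO, 143 and 164 in NKO, and 48.2 and 46.2 in NT cells on IgG. TKO cells thus had 5.46 times the TPM of NT cells on DLL4 and 5.37 times on IgG, and NKO cells 3.03 times on DLL4 and 3.25 times on IgG. REXO2 (chr11:114439386-114450279, plus strand), an exonuclease that clears short RNA in mitochondria, had the next largest after RDX, 1.68, and was the most abundant member. It had 305 and 321 TPM in TKO cells, 182 and 172 in NKO cells, and 75.8 and 68.7 in NT cells on DLL4, and 304 and 294 TPM in TKO, 167 and 156 in NKO, and 72.9 and 65.0 in NT cells on IgG. NNMT and REXO2 were each at 3 separate levels on both coatings. The promoter of REXO2 (chr11:114439217-114439516, plus strand, RefSeq window on GRCh38.p14) is printed because REXO2 is the last member before the differences became smaller. Capitals mark CATTCC, the TEAD core read on the other strand.
REXO2: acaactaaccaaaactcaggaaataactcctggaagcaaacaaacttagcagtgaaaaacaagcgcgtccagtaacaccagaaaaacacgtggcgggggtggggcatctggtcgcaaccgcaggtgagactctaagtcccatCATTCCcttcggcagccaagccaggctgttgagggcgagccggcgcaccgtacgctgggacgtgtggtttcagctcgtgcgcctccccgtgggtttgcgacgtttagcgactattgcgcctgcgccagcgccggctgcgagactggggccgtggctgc

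The fifth stretch runs from BUD13 to UBE4A, and in it NKO cells were mostly near NT. BUD13, a part of the RES complex that helps splicing, had 23.8 and 23.1 TPM in TKO cells, 19.0 and 17.7 in NKO cells, and 12.8 and 13.3 in NT cells on DLL4, and 30.4 and 26.6 TPM in TKO, 21.2 and 21.4 in NKO, and 19.1 and 17.1 in NT cells on IgG. SIK3, a kinase related to SIK2, had 8.34 and 8.42 TPM in TKO cells, 6.98 and 8.96 in NKO cells, and 8.94 and 6.71 in NT cells on DLL4, so its lines overlapped there. On IgG its libraries held 7.17 and 8.85 TPM in TKO cells, 7.86 and 7.86 in NKO cells, and 5.78 and 5.70 in NT cells. Both edited lines were thus above NT without overlap on IgG, with ratios of 1.40 (TKO) and 1.37 (NKO). PAFAH1B2 (chr11:117144267-117176894, plus strand), a catalytic subunit of the enzyme that inactivates platelet-activating factor, had 60.6 and 58.0 TPM in TKO cells, 38.6 and 37.0 in NKO cells, and 39.0 and 38.1 in NT cells on DLL4. On IgG it had 62.9 and 66.0 TPM in TKO cells, 52.1 and 36.2 in NKO cells, and 40.9 and 39.5 in NT cells. Its NKO libraries overlapped those of NT on both coatings, and its TKO libraries were above both other lines.

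SIDT2 (chr11:117178733-117197445, plus strand), a lysosomal membrane protein, had 18.4 and 17.5 TPM in TKO cells, 12.6 and 12.7 in NKO cells, and 15.9 and 13.7 in NT cells on DLL4, and 13.0 and 12.2 TPM in TKO, 11.8 and 10.8 in NKO, and 10.1 and 11.4 in NT cells on IgG. On DLL4 its NKO libraries were below those of NT, with a difference of -0.21 (SE 0.11). PCSK7 (chr11:117204337-117232525, minus strand), a proprotein convertase, had 49.8 and 49.6 TPM in TKO cells, 42.9 and 46.1 in NKO cells, and 48.7 and 38.1 in NT cells on DLL4, and 53.3 and 56.4 TPM in TKO, 47.0 and 48.2 in NKO, and 41.5 and 44.2 in NT cells on IgG. The RING finger gene RNF214 (chr11:117232625-117286445, plus strand) starts 100 bases from it. It had 14.5 and 14.1 TPM in TKO cells, 8.14 and 8.998 in NKO cells, and 9.86 and 8.54 in NT cells on DLL4, and 11.2 and 12.9 TPM in TKO, 9.53 and 7.59 in NKO, and 8.53 and 7.63 in NT cells on IgG. Its NKO and NT libraries overlapped on both coatings. The NKO difference was below 0 on DLL4 for PAFAH1B2 (-0.03) and RNF214 (-0.09), and for SIK3 and PCSK7, at 0.03 and 0.04, the sign turned under rescaling by median of ratios. Quantile normalisation also turned SIK3 on DLL4, and SIDT2 and RNF214 on IgG.

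BACE1 (chr11:117285207-117316259, minus strand), the beta-secretase, was the exception of the fifth stretch. It had 40.3 and 38.7 TPM in TKO cells, 20.9 and 19.1 in NKO cells, and 11.9 and 10.2 in NT cells on DLL4, and 28.5 and 39.1 TPM in TKO, 22.5 and 17.7 in NKO, and 6.76 and 8.09 in NT cells on IgG. Its lines were separated on both coatings, with ratios to NT of 3.56 (TKO) and 1.80 (NKO) on DLL4 and 4.55 (TKO) and 2.70 (NKO) on IgG. CEP164, which builds the distal appendages of centrioles, overlaps BACE1 by 1703 bases and did not share its size. It had 27.7 and 24.8 TPM in TKO cells, 17.9 and 20.0 in NKO cells, and 17.6 and 14.5 in NT cells on DLL4, and 25.2 and 27.9 TPM in TKO, 22 and 18.4 in NKO, and 17.1 and 21.2 in NT cells on IgG. UBE4A, a U-box ubiquitin ligase and the last member, was 1.32 (TKO) and 1.10 (NKO) times NT on DLL4 and 1.49 (TKO) and 1.19 (NKO) times NT on IgG.

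**Figure D3:**
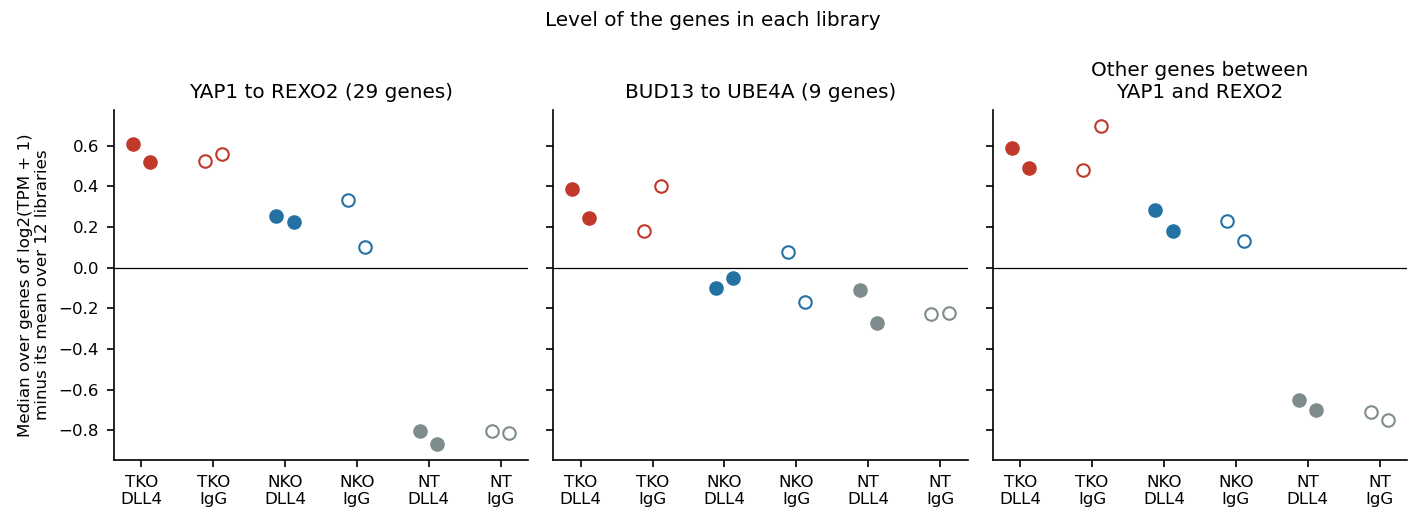
Median over genes of each library's log2(TPM + 1) after subtraction of the gene's mean over the 12 libraries, for the members from YAP1 to REXO2, the members from BUD13 to UBE4A, and the protein-coding genes from YAP1 to REXO2 that are not on the list. Each point is a library (filled for DLL4, open for IgG); in the left panel TKO libraries lie between 0.52 and 0.61, NKO libraries between 0.10 and 0.33 and NT libraries between -0.87 and -0.80.

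Library by library, the median of the 29 members from YAP1 to REXO2, after subtraction of each gene's mean over the 12 libraries, was 0.61 and 0.52 in TKO cells, 0.25 and 0.22 in NKO cells, and -0.80 and -0.87 in NT cells on DLL4. On IgG it was 0.52 and 0.56 in TKO cells, 0.33 and 0.10 in NKO cells, and -0.80 and -0.81 in NT cells. The libraries of each line lay together whatever their coating, and those of the 3 lines did not overlap. NKO library 2 on IgG was the lowest of the edited libraries.

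Genes in the same stretch that were not on the list are a second description. Between YAP1 and REXO2, 14 further tested protein-coding genes averaged at least 1 TPM. Of them 11 were above NT without overlap in all 4 contrasts, against the 9.17% of all genes tested, for which no limit was set on the mean. The median difference of the 14 was 1.24 on DLL4 and 1.36 on IgG for TKO minus NT, and 0.89 on DLL4 and 0.88 on IgG for NKO minus NT. Among them KDELC2, MSANTD4, ALKBH8, SLC35F2, ZC3H12C, FDXACB1, C11orf1, NKAPD1, SDHD, C11orf71 and MMP10 were above NT in all 4, and MMP1, CASP1 and CARD16 were not. Nothing is read from this count, since a gene can reach the limit on the mean through the edited lines. ZC3H12C did so, with NT means of 0.835 TPM on DLL4 and 0.662 on IgG. CASP1 had NT means of 1.125 TPM on DLL4 and 0.256 on IgG, against TKO means of 8.21 on DLL4 and 2.87 on IgG. MMP1, the interstitial collagenase, had 37.4 and 34.4 TPM in TKO cells, 91.5 and 83.7 in NKO cells, and 86.8 and 64.6 in NT cells on DLL4. CARD16, a caspase-1 inhibitor beside CASP1, had 94.4 and 76.9 TPM in TKO cells, 6.92 and 8.16 in NKO cells, and 11.03 and 14.3 in NT cells on DLL4. CASP1, the protease that matures interleukin 1 beta, had 9.18 and 7.24 TPM in TKO cells, 1.30 and 1.23 in NKO cells, and 0.674 and 1.57 in NT cells on DLL4. CARD16 and CASP1 are close sequence relatives, and their reads may not be fully told apart. Beyond REXO2, the 4 unlisted genes were ZPR1, TAGLN, MPZL3 and MPZL2. TKO cells were below NT without overlap for MPZL3 (-0.27 on DLL4, -0.93 on IgG) and MPZL2 (-0.67 on DLL4, -0.98 on IgG). NKO cells were above NT without overlap on DLL4 for both (0.36 each) and below NT on IgG (-0.29 for MPZL3, -0.24 for MPZL2). ZPR1, a zinc finger protein, had 91.9 and 87.0 TPM in TKO cells, 76.5 and 68.3 in NKO cells, and 72.3 and 68.7 in NT cells on DLL4, and TAGLN, an actin-binding protein of smooth muscle, was above NT without overlap in NKO cells, by 1.37 on DLL4 and 1.73 on IgG, and overlapped NT in TKO cells, with differences of 0.51 on DLL4 and 0.30 on IgG.

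**Figure D4:**
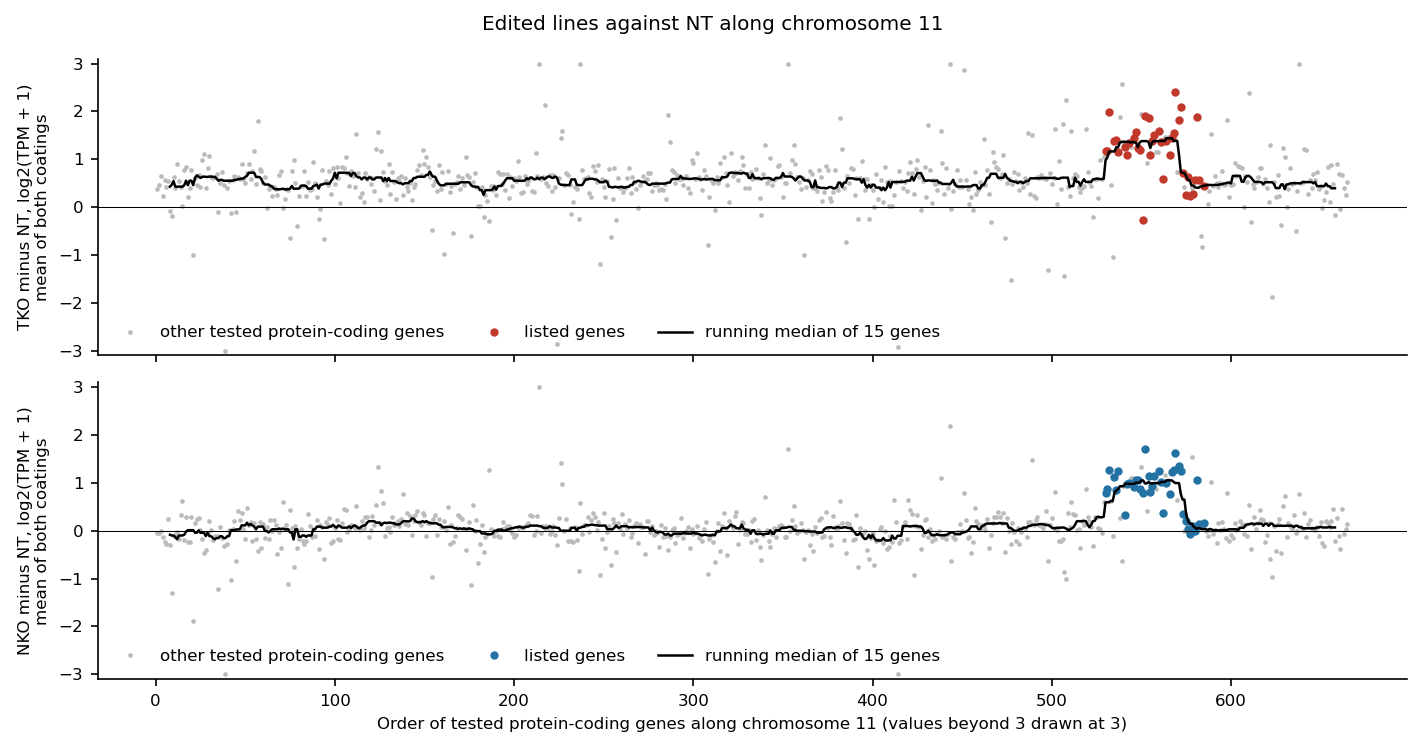
Difference from NT, mean of both coatings, in log2(TPM + 1), for 665 protein-coding genes of chromosome 11 in order of position, with TKO above and NKO below; grey points are unlisted genes, coloured points listed genes, and the black line is the running median of 15 genes. Inside the stretch from CEP126 to REXO2 the running median lies between 1.23 and 1.44 for TKO and between 0.84 and 1.05 for NKO, and after it between 0.38 and 0.65 for TKO and between 0.01 and 0.15 for NKO.

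The edges were followed gene by gene. In the 5 Mb before YAP1 the one tested protein-coding gene averaging at least 1 TPM was CEP126. It encodes a centrosome protein and ends 0.109 Mb before YAP1. CEP126 had 6.95 and 8.67 TPM in TKO cells, 4.03 and 4.999 in NKO cells, and 2.99 and 3.31 in NT cells on DLL4, and 3.21 and 1.87 TPM in TKO, 2.04 and 1.95 in NKO, and 0.862 and 0.624 in NT cells on IgG. Across the 5.41 Mb before CEP126 no tested protein-coding gene averaged 1 TPM, and beyond that gap lie JRKL and CCDC82. The NKO difference of JRKL was -0.04 on both coatings, and that of CCDC82 was 0.03 on DLL4 and 0.04 on IgG, while their TKO differences were 0.42 (JRKL) and 0.77 (CCDC82) on DLL4 and 0.77 (JRKL) and 1.18 (CCDC82) on IgG. After UBE4A come ATP5MG, a subunit of ATP synthase, AP001267.5 and KMT2A, a histone methyltransferase. ATP5MG had 582 and 559 TPM in TKO cells, 402 and 414 in NKO cells, and 382 and 394 in NT cells on DLL4. KMT2A had 8.47 and 6.14 TPM in TKO cells, 5.54 and 5.36 in NKO cells, and 7.86 and 5.19 in NT cells on DLL4. On IgG it had 6.69 and 6.54 TPM in TKO cells, 5.91 and 4.56 in NKO cells, and 3.92 and 4.715 in NT cells. TKO cells were above NT without overlap on IgG only, and NKO cells overlapped NT on both coatings. AP001267.5 averaged 1.75 TPM with differences of at most 0.29.

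In NKO cells the rest of chromosome 11 was at the level of other autosomes. The median NKO difference over 360 other genes of the long arm was 0.06 on DLL4 and 0.02 on IgG, over 211 genes of the short arm 0.06 on DLL4 and 0.06 on IgG, and over 10475 genes of the other autosomes 0.07 on DLL4 and 0.07 on IgG. In TKO cells the rest of the chromosome was not at that level. The median TKO difference was 0.58 on DLL4 and 0.50 on IgG for the long arm, 0.52 on DLL4 and 0.50 on IgG for the short arm, and 0.02 on DLL4 and 0.01 on IgG for the other autosomes. The fifth stretch, with TKO medians of 0.59 on DLL4 and 0.52 on IgG, was at the level of the rest of the chromosome. The median of the 29 members before it was above that level, while DDX10 on both coatings and PIH1D2 on IgG were below it. The running median over 15 neighbours, averaged over the coatings, lay between 0.26 and 0.74 for TKO and between -0.21 and 0.26 for NKO in the 514 windows before CEP126. Only RNA was measured in these files.

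TKO and NKO were then compared with each other, a contrast that had no part in the choice of genes. Of the 38 members 15 were higher in TKO on DLL4, where 12.9% of all genes tested were, and 15 on IgG, where 10.9% were (limma, Benjamini-Hochberg adjusted p under 0.05 over all genes tested). DDX10 was the 1 member lower in TKO on each coating, where 9.91% of genes tested were lower on DLL4 and 8.75% on IgG. The median difference TKO minus NKO of the members was 0.37 on DLL4 and 0.35 on IgG, and over all genes tested it was -0.03 on both. The rest of the long arm had medians of 0.54 on DLL4 and 0.47 on IgG, with 260 of its 360 genes called higher in TKO on DLL4 and 240 on IgG, so the members' medians were below those of the arm around them.

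REXO2 had a difference TKO minus NKO of 0.82 ± 0.08 on DLL4 (SE; limma adjusted p = 4.83e-05) and 0.89 ± 0.08 on IgG (adjusted p = 3.61e-05). NNMT differed by 0.85 ± 0.09 on DLL4 (limma adjusted p = 8.38e-05) and by 0.72 ± 0.09 on IgG (adjusted p = 0.000328). ACAT1 was higher in TKO by 0.48 ± 0.09 on DLL4 (limma adjusted p = 0.00324) and by 0.54 ± 0.09 on IgG (adjusted p = 0.00214). These 3 genes kept their calls on both coatings under every alternative checked. For these checks, only libraries of the groups compared were left out. A group left with 1 library has no spread of its own in such a fit, and is assumed to vary like the other groups. Among genes of mitochondria, FDX1 was higher in TKO by 0.81 on DLL4 (limma adjusted p = 0.000558) and 0.62 on IgG (adjusted p = 0.00382), and TIMM8B by 0.47 on DLL4 (adjusted p = 0.0246), with 0.30 on IgG (adjusted p = 0.129). Among genes of membranes and protein turnover, TMEM123 was higher by 0.67 on DLL4 (limma adjusted p = 0.00723) and 0.73 on IgG (adjusted p = 0.00514), and BACE1 by 0.95 on DLL4 (adjusted p = 0.00179) and 0.72 on IgG (adjusted p = 0.0106). PAFAH1B2 was higher by 0.64 on DLL4 (limma adjusted p = 0.00595) and 0.56 on IgG (adjusted p = 0.0136), and RNF214 by 0.68 on DLL4 (adjusted p = 0.00478) and 0.46 on IgG (adjusted p = 0.0395). KBTBD3, BUD13, PTS and DCUN1D5 were called on both coatings as well, with differences of 0.25 to 0.91 on DLL4 and 0.28 to 0.95 on IgG. SIDT2 (0.48, limma adjusted p = 0.011) and CEP164 (0.45, adjusted p = 0.0426) were called on DLL4, and BIRC2 (0.39, adjusted p = 0.0328), CUL5 (0.74, adjusted p = 0.0224) and ATM (0.65, adjusted p = 0.0254) on IgG. DDX10 was lower in TKO, with a difference of -1.15 ± 0.16 on DLL4 (limma adjusted p = 0.000442) and -0.98 ± 0.16 on IgG (adjusted p = 0.00154).

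Besides those of ACAT1, NNMT and REXO2, the calls of BACE1, DDX10, FDX1, PAFAH1B2, RNF214 and TMEM123 on DLL4 held under every alternative checked. Each other call was lost under at least 1. Leaving out 1 library brought the 16 calls on IgG to between 8 and 17, the 8 without NKO library 2, and the 16 calls on DLL4 to between 9 and 11, the 9 without NKO library 1, TKO library 2 or TKO library 3. The largest of the members without a call on either coating was DYNC2H1, at 0.68 ± 0.27 on DLL4 (limma adjusted p = 0.103), whose error is wide at its low level. RDX, with a TKO minus NKO difference of 0.18 ± 0.19 on both coatings, CASP4, with -0.16 ± 0.08 on DLL4 and -0.02 ± 0.08 on IgG, and SIK3, with 0.07 ± 0.16 on DLL4 and 0.02 ± 0.16 on IgG, were not called, and a p over the threshold does not show that the lines were equal. Median-of-ratios rescaling turned the sign of CASP4 on IgG.

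**Figure D5:**
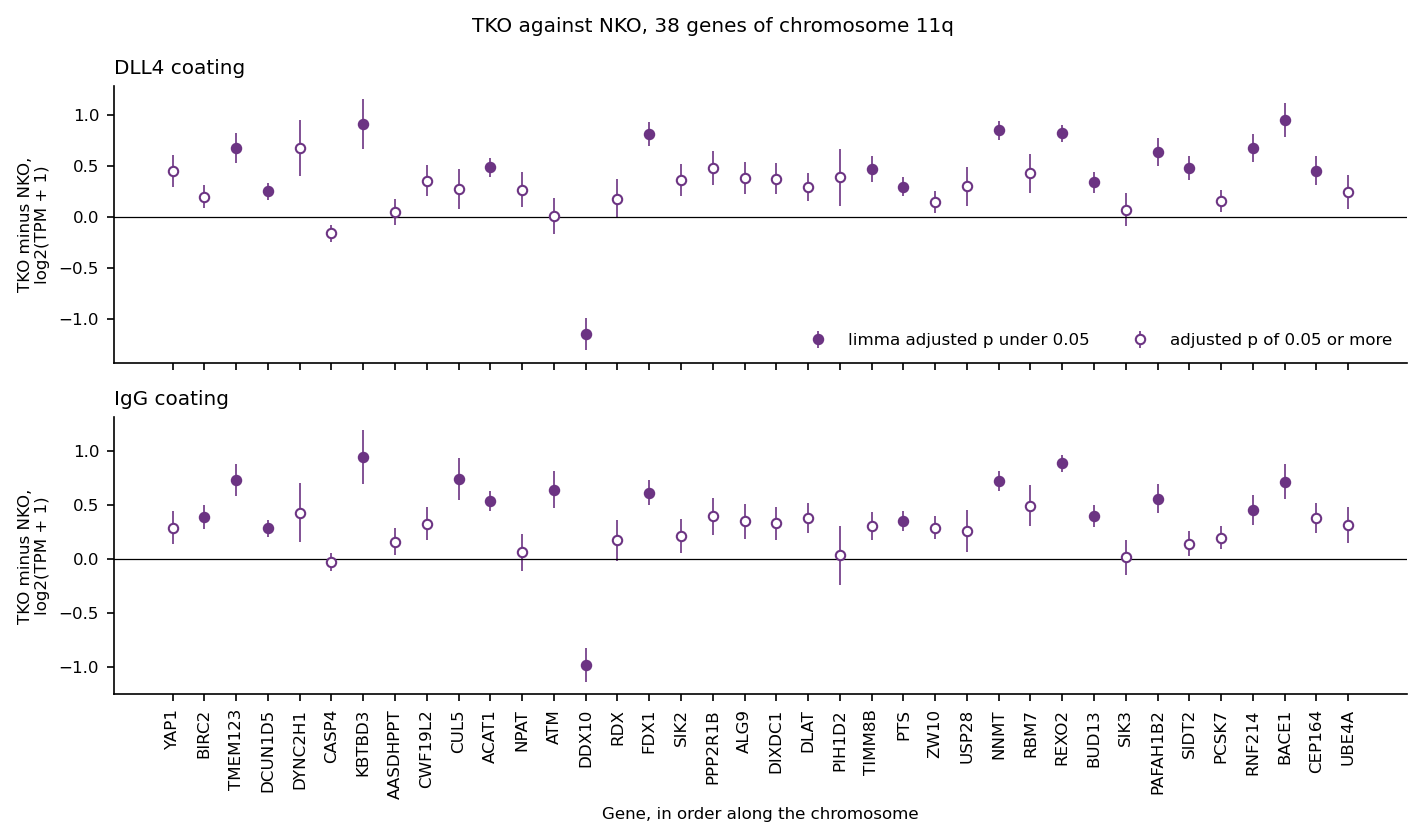
Difference TKO minus NKO in mean log2(TPM + 1) for 38 genes in order along the chromosome, on DLL4 (upper panel) and IgG (lower panel). Points are fitted differences, bars their standard errors (2 libraries per group), and filled points have a limma adjusted p under 0.05; DDX10, at -1.15 on DLL4 and -0.98 on IgG, is the one filled point below 0 on each coating.

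The coatings were then compared within each line, and nothing is read from counts near the shares of all genes given beside them. In TKO cells 1 member, SIDT2, was higher on DLL4 than on IgG (0.48 ± 0.11, limma adjusted p = 0.0306), and none was lower, where 4.11% of all genes tested were higher and 2.41% lower. In NKO cells no member passed the limma threshold, where 0.511% of genes tested were called higher and 0.271% lower. An unadjusted limma p under 0.05 was found there for 1 of the 38 members and for 1221 of the 13299 genes tested. In NT cells SIDT2 was higher on DLL4 (0.42 ± 0.11, limma adjusted p = 0.0284), where 7.68% of genes tested were, and 3 members were lower, where 8.34% were. Those 3 were DDX10 (-1.02 ± 0.16, limma adjusted p = 0.00176), DCUN1D5 (-0.44 ± 0.08, adjusted p = 0.00467) and BUD13 (-0.44 ± 0.10, adjusted p = 0.0146). The call of SIDT2 in TKO cells was lost without any 1 of the 4 libraries compared, with adjusted p up to 0.201, and in NT cells without DLL4 library 2, IgG library 2 or IgG library 3, with adjusted p up to 0.189. BUD13 lost its call in NT cells without DLL4 library 2, DLL4 library 3 or IgG library 2, with adjusted p up to 0.0986.

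The responses to DLL4 of the edited lines were set against that of NT, and no member passed the limma threshold. For the response of TKO minus that of NT, 0 members were called, where 0.196% of genes tested were called higher and 0.331% lower. An unadjusted limma p under 0.05 was found for 3 of the 38 members and for 2062 of the 13299 genes tested. For the response of NKO minus that of NT, 0 members were called, where 0.316% of genes tested were called higher and 0.571% lower. Here 4 of the 38 members and 1715 of the 13299 genes tested had an unadjusted limma p under 0.05. Nothing is read from these counts. The medians over the members were 0.05 for TKO and 0.04 for NKO.

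TTC12, a gene for the assembly of dynein arms, missed the limit of 1 TPM with a mean of 0.982 and had a pattern of its own. It had 0.108 and 0.0202 TPM in TKO cells and 2.85 and 2.87 in NKO cells, and was listed at 0 in both NT libraries on DLL4. Its IgG libraries held 0.0257 and 0.622 TPM in TKO cells, 3.56 and 1.69 in NKO cells, and 0.0429 and 0 in NT cells. NKO was the line in which it was high. It passed the filter for tested genes only through the NKO libraries, so its TKO minus NKO difference, -1.86 on DLL4 and -1.44 on IgG, is given without a test. LAYN, a hyaluronan receptor, had 1.61 and 1.87 TPM in TKO cells, 0.410 and 0.593 in NKO cells, and 0.144 and 0.0679 in NT cells on DLL4. It passed the filter only through the TKO libraries, so its TKO minus NKO difference, 0.87 on DLL4 and 0.84 on IgG, is likewise given without a test. IL18, an inflammatory cytokine gene, had 2.03 TPM in TKO library 2 and 0.173 in library 3 on DLL4, and 3.17 TPM in TKO library 2 and 0.145 in library 3 on IgG, against 0.0834 to 0.352 TPM in NKO and 0.130 to 0.281 TPM in NT libraries. The level of IL18 thus followed the library number within TKO cells.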

How the data were processed

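Polyadenylated RNA of 12 libraries was read as the authors' deposited TPM per gene symbol. The submitters' processing notes name kallisto, edgeR and hg38. For versions, annotation and the step from transcripts to symbols, nothing is given in the sources used here. TPM summed to 97.5% to 97.7% of the nominal total per library, and the entry KPNA2P2 took 0.280% to 5.61% of a library. Libraries are named by the numbers of the columns (2 and 3 for TKO and NT, 1 and 2 for NKO), which the labels give as 1 and 2.

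From these values, genes with at least 1 TPM in at least 2 libraries (13299) were fitted as log2(TPM + 1), which understates changes at low TPM, with limma 3.58.1 in R 4.3.3: 1 mean per line and coating over all 12 libraries, variance trend, two-sided tests, Benjamini-Hochberg adjustment over all genes tested, threshold 0.05. It had 6 residual degrees of freedom (10.8 with moderation) and was tested on simulated data. Errors are SE of the fit for log2 values and SD for TPM. Positions are from GENCODE 29 (GRCh38), which held 35389 of the 35587 symbols. Same-numbered libraries deviated together (r over 0.1) in 2 of 22 pairs. Both were NKO libraries across the coatings (r = 0.279), and with 2 libraries per group they are the same value. The numbers were not taken to pair libraries, though pairing within NKO cells is not excluded, and a replicate block was run as an alternative. Pairing within TKO cells, where r was 0.016, is not excluded either, since IL18 followed the library number there.

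The members, lists and tests were chosen with earlier results of these data known. Genes given in full are the 2 most abundant per stretch, those below NT in any contrast, the 3 with the largest mean difference, those called and the least abundant one, with unlisted genes inside the span and 3 neighbours at each end. Unlisted genes, neighbours and the genes of the rest of chromosome 11 and of other autosomes were limited to tested protein-coding genes averaging at least 1 TPM. Alternatives were a pseudocount of 0.1, no filter or a mean of 5 TPM, median-of-ratios or quantile scaling, a replicate block, no variance trend, only the libraries compared, KPNA2P2 left out, and each library left out in turn.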

Additional observations from a re-analysis of the deposited data

Results flagged for a closer look

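In 3 members, each library on DLL4 lay on one side of both libraries on IgG in an edited line and on the other side in NT cells. Of the 13299 genes tested, 3789 were higher on DLL4 without overlap in TKO cells, 2509 were so in NKO cells, and 3711 were lower in NT cells. The share of all genes with such a crossing was not counted, so nothing is read from the 3. The response of TKO minus that of NT was 0.46 for FDX1 and 0.35 for TIMM8B, and the response of NKO minus that of NT was 0.77 for ATM. The limma test of the difference of responses passed its threshold for none of these 3, so that the differences between lines are not established.

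Among the members and the unlisted protein-coding genes from YAP1 to UBE4A, 5 had both TKO libraries on one side of both NT libraries and both NKO libraries on the other, and the value given is TKO minus NKO in log2(TPM + 1). It was -0.98 for DDX10 on IgG, 3.07 for CARD16 on IgG and 3.34 on DLL4, 0.48 for SIDT2 on DLL4, -0.63 for MPZL3 on DLL4 and -1.03 for MPZL2 on DLL4. The position on either side of NT was not tested, since those contrasts chose the gene list. Over all genes tested, 21.2% to 37.1% lay on a given side of NT without overlap, by line and coating. The share of all genes with the lines on opposite sides was not counted, so nothing is read from the 5. TKO minus NKO is given here without a test, since picking genes with the lines on opposite sides of NT already sets TKO and NKO apart. MPZL2 and MPZL3 are adhesion proteins of the immunoglobulin family and lie side by side.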

How the results depend on the processing

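No median or call changed direction. Main medians were 1.28 (TKO on DLL4), 1.25 (TKO on IgG), 1.03 (NKO on DLL4) and 0.90 (NKO on IgG). A pseudocount of 0.1 gave 1.55 (TKO on DLL4), 1.42 (TKO on IgG) and 1.11 (NKO on DLL4). Quantile scaling gave 1.17 (TKO on IgG) and 1.00 (NKO on DLL4), and for NKO on DLL4 a mean of 5 TPM gave 1.07 and median-of-ratios scaling 0.98. With 1 library left out, medians were 1.25 to 1.38 (TKO on DLL4), 1.21 to 1.30 (TKO on IgG), 0.93 to 1.11 (NKO on DLL4) and 0.79 to 1.03 (NKO on IgG). The 18 unlisted genes of the span had medians of 1.17 (TKO on DLL4), 1.12 (TKO on IgG), 0.85 (NKO on DLL4) and 0.76 (NKO on IgG). A pseudocount of 0.1 brought these to 1.38 (TKO on DLL4), 1.41 (TKO on IgG), 1.06 (NKO on DLL4) and 0.99 (NKO on IgG), a mean of 5 TPM to 1.35 (TKO on IgG), 1.04 (NKO on DLL4) and 0.96 (NKO on IgG), and for NKO on IgG median-of-ratios scaling to 0.71 and quantile scaling to 0.70.

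The 16 calls of TKO against NKO on IgG became 10 with no filter, when more genes are tested, and 3 with only the libraries compared, when fewer degrees of freedom are left; without 1 library they were 8 to 17 on IgG and 9 to 11 on DLL4. The 1 call of DLL4 against IgG in TKO cells became 0 with only the libraries compared, and without 1 library was 0 to 1. The 4 calls in NT cells became 7 with median-of-ratios scaling, 7 with quantile scaling, 2 with only the libraries compared and 2 to 3 without 1 library. The 0 calls for the response of TKO against NT became 0 to 1 without 1 library, the 1 without TKO library 2 on IgG. The replicate block gave medians of 1.28 (TKO on DLL4), 1.25 (TKO on IgG), 0.95 (NKO on DLL4) and 0.87 (NKO on IgG), and 16 calls of TKO against NKO on DLL4 and 18 on IgG. Of 479 alternative values of tested member calls 381 kept the call. The causes of the other changes were not tested, and read depth, which TPM do not keep, could not be examined.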

Other observations

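Abundance and size of difference were set side by side for the 29 members from YAP1 to REXO2, as a description over genes that share libraries. Spearman's rho between mean TPM and the difference from NT was 0.31 on DLL4 and 0.36 on IgG for TKO, and 0.54 on DLL4 and 0.42 on IgG for NKO. On the log2(TPM + 1) scale low genes show smaller differences by construction.

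Genes that start back to back and are members or unlisted neighbours did not always have like differences. RBM7 exceeded NT by 1.60 on DLL4 and 2.03 on IgG in TKO cells, and C11orf71, which overlaps its start, by 0.91 on DLL4 and 0.55 on IgG. CASP17P, a caspase pseudogene beside CASP4 that is not protein coding, had 59.7 and 55.2 TPM in TKO cells, 8.98 and 10.0 in NKO cells, and 20.6 and 21.8 in NT cells on DLL4, and 6.90 and 5.33 TPM in TKO, 2.73 and 2.85 in NKO, and 1.55 and 1.02 in NT cells on IgG. Its libraries were higher on DLL4 than on IgG in all 3 lines, and it resembles CASP4 and CASP1 in sequence, so its reads are uncertain.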
